A study of Mus musculus with 40 samples.

Results

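Oligodendrocyte precursor and differentiation genes were followed in the cerebral cortex and cerebellum of mice that differed in age, in the vitamin E content of the diet and in the presence of Ttpa, the gene of the alpha-tocopherol transfer protein. The 10 genes were chosen by name, Pdgfra, Cspg4, Gpr17, Enpp6, Bmp4, Neu4, Bcas1, Sox10, Olig1 and Olig2, and every probe whose gene name matched one of them was taken. This gave 12 probes of 10 genes among the 55589 probes kept on the arrays. All 10 genes were represented, with 2 probes each for Enpp6 and Bmp4 and 1 probe for each of the others. Gene expression was measured on 40 one-colour Agilent arrays, 4 mice in each of 10 groups, and all mice had the C57Bl/6 background. In each region the groups were wild-type mice at 2 months and at 29 months on the normal diet (36 mg alpha-tocopherol per kg), wild-type mice at 29 months on a deficient diet, and Ttpa-/- mice, which lack the gene in all tissues, at 29 months on either the deficient diet or a diet supplemented with 600 mg per kg. Ttpa-/- mice on the normal diet and supplemented wild-type mice are not analysed here, so loss of Ttpa is compared only on the deficient diet, or together with a change of diet. The labels do not say whether the cortex and cerebellum with the same number came from one mouse.

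Oligodendrocytes, the cells that make myelin in the brain, arise throughout adult life from precursor cells that carry the receptor encoded by Pdgfra and the NG2 proteoglycan encoded by Cspg4. A precursor that commits to differentiation passes through a stage marked by Gpr17, a G protein-coupled receptor that holds back maturation, and by Bmp4, a secreted ligand known to oppose oligodendrocyte formation. The cell then passes through a newly formed stage marked by Enpp6, a choline-specific phosphodiesterase, and by Bcas1, a protein of early myelinating cells. Neu4 encodes a sialidase of the same lineage. The transcription factors encoded by Sox10, Olig1 and Olig2 act across the lineage. Some of these genes are also expressed by other cells of the tissue, for example Cspg4 by pericytes and Pdgfra by fibroblasts of the vessel wall and meninges. The tissue was measured whole, so fewer cells of a type and less RNA per cell cannot be told apart.

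Each value rests on a probe of 60 bases. The 30 bases at the 3′ end are printed for the probes of Sox10, Olig1 and Bcas1, which were called lower in the cerebellum on the deficient diet, as Gpr17 was. They are also printed for Enpp6, of which probe 2 was called there and probe 1 was not. A polyadenylation signal (AATAAA or ATTAAA) is in capitals where the probe held one.
Sox10: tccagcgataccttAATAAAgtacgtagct
Olig1: aacgttctcATTAAAgtaagcggagttggg
Bcas1: cccagttAATAAAaattgacagattatgcg
Enpp6 probe 1: tgcaagttccatacttcagtagttcagaag
Enpp6 probe 2: tacaagaaaggaaaatttgtctctcctttg
The probes of Sox10, Olig1 and Bcas1 held such a signal. Those of Sox10 (chr15:78985518-78985577, minus strand), Olig1 (chr16:91271799-91271858, plus strand) and Bcas1 (chr2:170172648-170172707, minus strand) are placed on the mm9 build, as the files give it. Of the 2 Enpp6 probes, probe 1 (chr8:48179484-48179543) starts at base 2299 of transcript NM_177304 and probe 2 (chr8:48154284-48154343) at base 943, so they read different stretches of the same RNA. Olig1 and Olig2 lie on the same chromosome, and the Olig2 probe is at chr16:91228470-91228529.

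RefSeq promoter windows, read over the 250 bases before the start site on build GRCm38.p6, were found for 6 of the 10 genes (Pdgfra, Cspg4, Enpp6, Bmp4, Neu4 and Olig2). Those of Enpp6 and Olig2 are shown because both held 1 match to ACAATG, a core letter pattern of SOX factors, searched on both strands and put in capitals.
Enpp6: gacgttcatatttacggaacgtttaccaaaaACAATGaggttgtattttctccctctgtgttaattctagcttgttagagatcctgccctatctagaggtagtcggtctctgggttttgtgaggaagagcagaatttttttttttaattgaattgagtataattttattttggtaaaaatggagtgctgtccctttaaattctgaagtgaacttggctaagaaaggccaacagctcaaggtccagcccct
Olig2: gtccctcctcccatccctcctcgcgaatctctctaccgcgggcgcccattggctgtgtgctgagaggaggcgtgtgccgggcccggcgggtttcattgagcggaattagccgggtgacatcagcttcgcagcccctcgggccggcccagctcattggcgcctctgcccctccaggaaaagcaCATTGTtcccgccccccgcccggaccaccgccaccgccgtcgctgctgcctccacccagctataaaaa
The Enpp6 window is chr8:46986637-46986886 and the Olig2 window chr16:91225300-91225549, both on the plus strand. Of the 32851 RefSeq windows of this length, 10.7% held ACAATG. The related pattern ACAAAG, held by 16.5% of windows, was found in none of the 6, and the E-box CANNTG, the pattern that OLIG proteins and other basic helix-loop-helix factors recognise, was found in those of Bmp4 (3 matches), Neu4 (1) and Pdgfra (1), against 66.2% of all windows. A match of letters is a description of the window and no evidence of binding.

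Levels are given as log2 of the processed intensity after subtraction of the array's 75th percentile, so that 0 is the level of the 75th percentile probe and a difference of 1 is a doubling. Between 51.4% and 61.4% of probes were well above background on an array, by the scanner software's own flag, and the correlation across probes between replicates of a group was 0.973 to 0.993. The targeted gene was readable in the cerebellum only, and only by the brighter Ttpa probe. That probe was well above background on 4 of 4 arrays in each of the wild-type groups there (-4.29 to -2.76) and on 1 of 8 arrays labelled Ttpa-/- (-7.04 to -5.00). In the cortex it was above background on 1 of 12 wild-type arrays. The other Ttpa probe was above background on 0 of 12 wild-type cerebellar arrays (-6.94 to -4.72) and on 1 of 8 labelled Ttpa-/- (-7.42 to -2.67), so it did not separate the genotypes. Summed levels of cortex markers were 6.08 to 6.46 in the cortex and 0.85 to 1.85 in the cerebellum, and those of cerebellum markers were 8.89 to 9.37 in the cerebellum and 2.13 to 2.77 in the cortex. The 40 arrays lay on 5 slides, and only the ageing comparison in the cortex, the deficient diet in wild-type cerebellum, supplementation in Ttpa-/- cerebellum, and supplemented Ttpa-/- against deficient wild-type cortex set groups of 1 slide against each other. In every other comparison slide and group cannot be told apart.

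**Figure D1:**
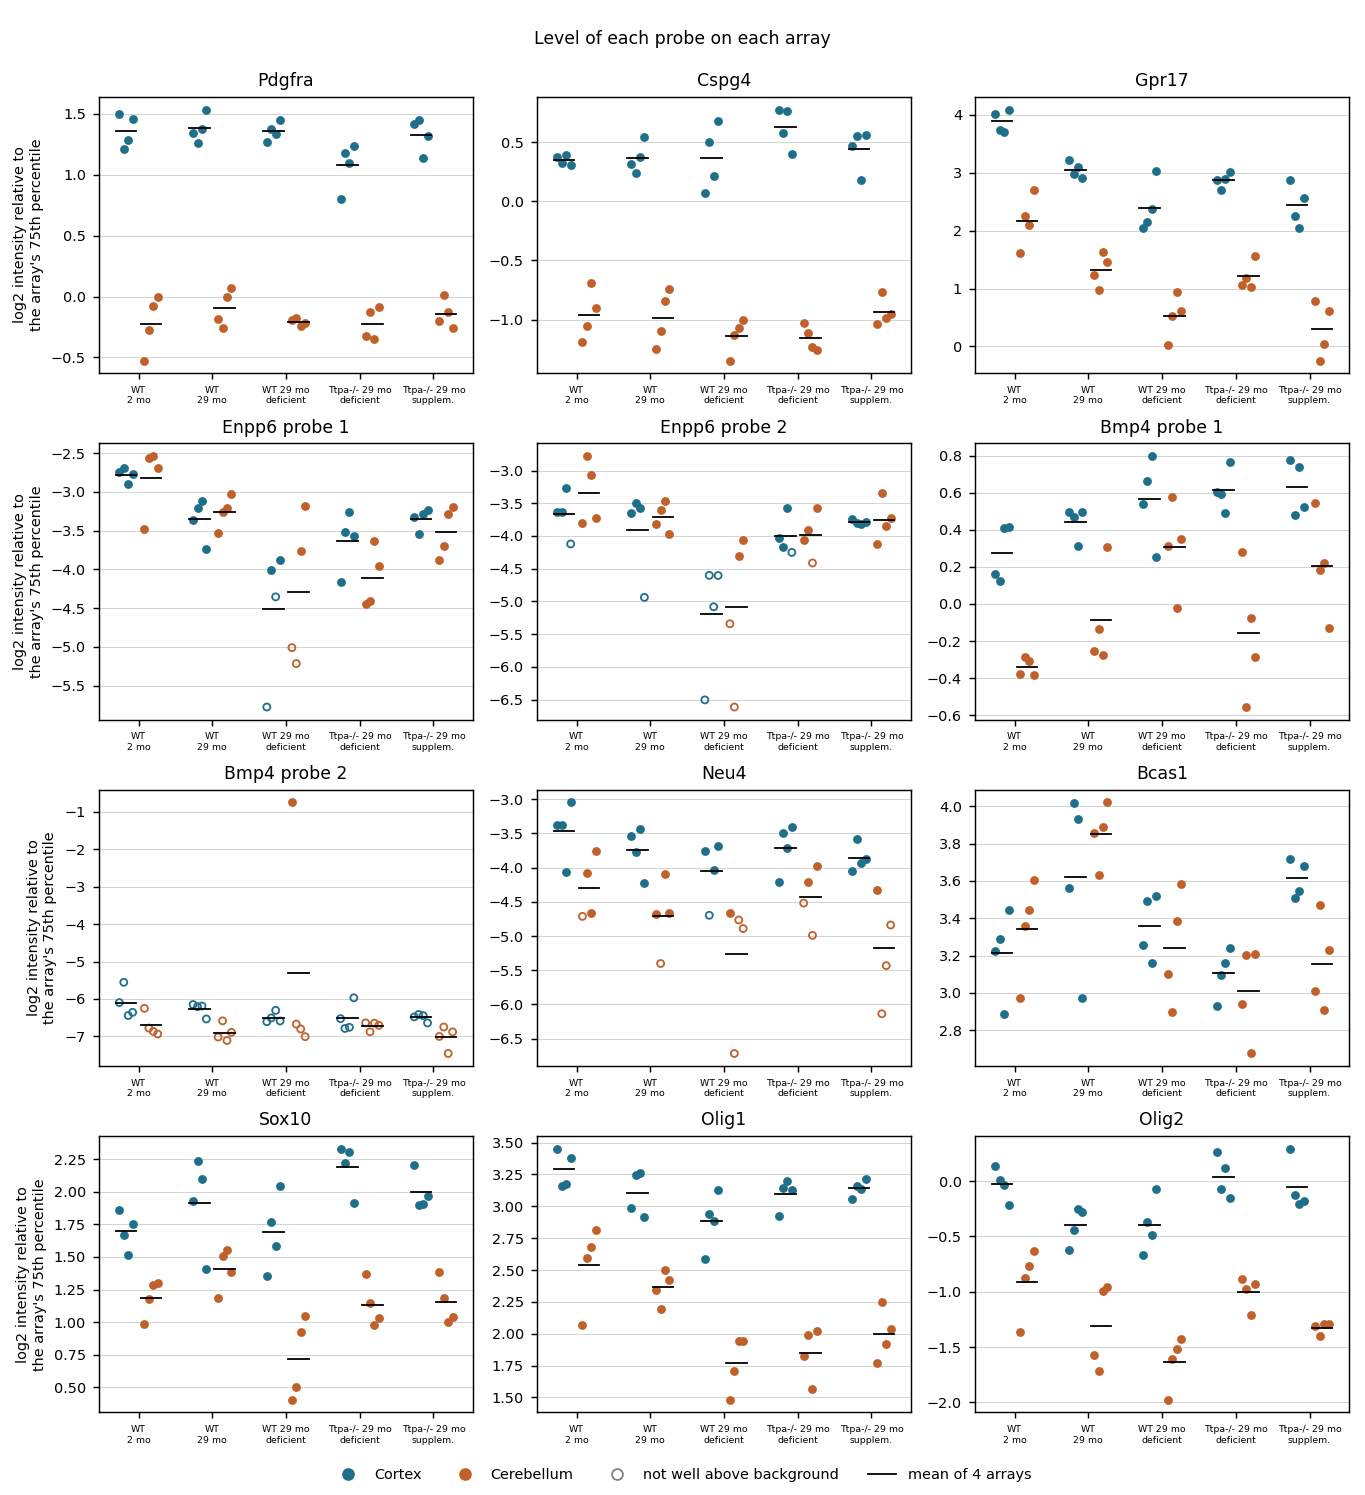
Level of each of the 12 probes (log2 intensity relative to the array's 75th percentile, vertical axis) on every array, by group (horizontal axis), with cortex in blue, cerebellum in orange, bars for the mean of 4 arrays and open circles for spots not well above background. Gpr17 stood highest at 2 months in both regions, the Pdgfra and Cspg4 points of the regions did not overlap, and Bmp4 probe 2 was above background on 1 array of 40.

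Among the members, the regions differed most in the precursor genes Pdgfra and Cspg4 and in Gpr17 of the committed stage. Pdgfra, Cspg4 and Gpr17 were 2.48- to 3.29-fold lower in the cerebellum than in the cortex of young mice. Enpp6 and Bcas1, the genes of the newly formed stage, did not pass the test in either direction. Enpp6 lay near background, and the interval of its probe 1 did not exclude a 1.5-fold difference. A gene was called when limma gave an adjusted p under 0.05 and the fold was above 1.5. At 2 months 6 of the 11 probes tested were called lower in the cerebellum and 0 higher, against 19.1% of all probes tested called lower and 19.3% called higher, and at 29 months 6 of 11 were lower and 0 higher, against 15.8% and 17.8%. Groups did not overlap for 7 of 11 probes at 2 months and 6 of 11 at 29 months, against 58.1% and 56.4% of all probes, a share near that of the whole array.

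Pdgfra, the receptor that drives precursor proliferation, read 1.50, 1.21, 1.28 and 1.45 in the young cortex and -0.53, -0.27, -0.08 and 0.00 in the young cerebellum. No cerebellar array reached a cortical one, at either age, and the difference was -1.58 ± 0.10 (SE, n = 4 per group, limma adjusted p = 1.26e-14) at 2 months and -1.47 ± 0.10 (adjusted p = 9.69e-14) at 29 months. Over all 20 arrays of each region it ranged from 0.80 to 1.53 in the cortex and from -0.53 to 0.07 in the cerebellum. This probe was spotted 10 times on each array, and the SD among its single spots was 0.0507 to 0.155. Cspg4 behaved in the same way, at 0.31 to 0.39 in the young cortex and -1.19 to -0.69 in the young cerebellum, a difference of -1.31 ± 0.13 (adjusted p = 8.05e-11), and of -1.35 ± 0.13 (adjusted p = 5.29e-11) in aged mice. Of the 8 pericyte markers, 0 were called between regions at 2 months, with summed levels of 3.20 to 3.32 in the cortex and 2.96 to 3.16 in the cerebellum. Of the 8 markers of vessel and meningeal fibroblasts, 4 were called higher and 1 lower in the cerebellum, with summed levels of 3.74 to 4.73 in the cortex and 4.42 to 4.58 in the cerebellum. The part of either cell type in the Pdgfra and Cspg4 readings was not tested.

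Gpr17 had the largest difference between regions among the 12 probes. It read 4.01, 3.74, 3.70 and 4.09 in the young cortex against 1.62, 2.26, 2.10 and 2.69 in the young cerebellum, 3.29-fold lower (-1.72 ± 0.23, adjusted p = 1.11e-07). The aged groups were both lower and their distance was the same, -1.72 ± 0.23 (adjusted p = 1.34e-07). Bmp4 probe 1, for the ligand, was called at 2 months only (-0.61 ± 0.15, adjusted p = 0.000761), and at 29 months its difference of -0.53 was under the fold threshold (adjusted p = 0.00346). Neu4, the sialidase, was close to background, and its value at 29 months (-0.97 ± 0.37, adjusted p = 0.0278) rested on a cerebellar group with 3 of 4 arrays above background. It lost the call without replicate 2 of the aged cerebellum (-0.74, adjusted p = 0.12) or without replicate 1 or 3 of the aged cortex (adjusted p = 0.0645 and 0.0733), and shrank to -0.46 with normexp background correction. Of the 9 probes above background on every array of both regions, 6 were called lower at 2 months and 5 at 29 months. Bcas1 differed between regions by 0.13 (95% interval -0.23 to 0.50) in young and 0.23 (-0.14 to 0.59) in aged mice, and Enpp6 probe 1 by -0.04 (-0.73 to 0.66) and 0.10 (-0.60 to 0.79).

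Among the lineage factors, Olig1 and Olig2 were lower in the cerebellum at both ages. Olig2 read 0.14, 0.01, -0.04 and -0.21 in the young cortex and -1.36, -0.88, -0.76 and -0.63 in the young cerebellum, with no overlap, a difference of -0.88 ± 0.16 (adjusted p = 2.29e-05). Olig1 differed by -0.75 ± 0.14 (adjusted p = 1.95e-05) at 2 months and by -0.74 ± 0.14 (adjusted p = 3.1e-05) at 29 months. Sox10 differed by -0.51 at both ages (adjusted p = 0.00554 and 0.00673), which is under the fold threshold. Bmp4 at 2 months lost its call with array weights, with normexp background correction, or without replicate 3 or 4 of the young cortex (differences of -0.58, -0.51, -0.57 and -0.57). In these comparisons slide and region cannot be told apart.

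Other genes of the precursor state, in a list of 20 genes that also holds Pdgfra and Cspg4, went the same way more often than the other way. Leaving those 2 out, 10 of 18 tested were called lower and 4 higher in the young cerebellum (median -0.79), and 10 lower and 3 higher in the aged cerebellum (median -0.86), while the median over all probes tested was -0.02 and 0.01. Of 18 tested genes of the committed and newly formed stage, 9 were higher and 2 lower at 2 months (median 0.46), and 9 higher and 1 lower at 29 months (median 0.42). Of 19 tested genes of myelinating oligodendrocytes, 2 were called higher and 0 lower at 2 months (median 0.19), and 0 higher and 1 lower at 29 months (median 0.07). Markers of other cells differed between the regions too, with 5 of 7 tested immature neuron markers and 5 of 6 microglia markers called lower, and of 6 astrocyte markers 2 higher and 1 lower, in the young cerebellum. Their part in the list counts was not tested.

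**Figure D2:**
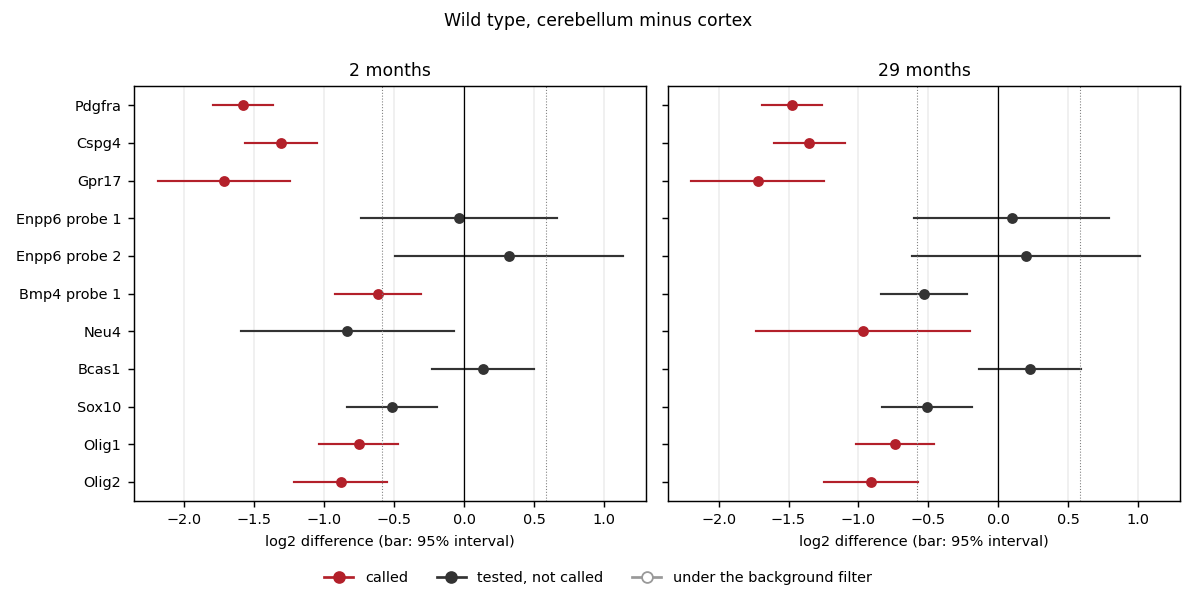
Cerebellum minus cortex in wild-type mice at 2 and 29 months, as log2 difference (horizontal axis) for 11 probes (vertical axis), with bars for the 95% interval and dotted lines at 1.5-fold. Pdgfra, Cspg4 and Gpr17 lay between -1.72 and -1.31 at both ages, and the intervals of Bcas1 and both Enpp6 probes crossed 0.

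With age 1 of the 10 genes fell in both regions, and it was Gpr17, the receptor of committed precursors. In the cortex it read 4.01, 3.74, 3.70 and 4.09 at 2 months and 3.23, 2.97, 3.10 and 2.90 at 29 months, with no overlap. In the cerebellum it read 1.62, 2.26, 2.10 and 2.69 against 1.24, 0.98, 1.62 and 1.47, where the lowest young array lay level with the highest aged one. The difference was -0.84 ± 0.23 in the cortex (1.79-fold, limma adjusted p = 0.0321, n = 4 per group, exact permutation p = 0.0286, the smallest that 4 against 4 can give) and -0.84 ± 0.23 in the cerebellum (1.79-fold, adjusted p = 0.0149, exact permutation p = 0.0571). Gpr17 was the 1 call among 10 probes tested in each region, against 0.499% of all probes called lower with age in the cortex and 1.04% in the cerebellum, and 0 of 10 were called higher in either region, against 1.59% and 3.99%. The difference between the regions in the effect of age was 0.00 for Gpr17 (95% interval -0.67 to 0.66), and 0 of 11 member probes were called for such a difference, against 1.46% of all probes in either direction. Without adjustment 0 of 11 had p under 0.05 by limma.

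The precursor receptors showed no such difference. Pdgfra changed by 0.02 (95% interval -0.19 to 0.23) in the cortex and 0.13 (-0.09 to 0.34) in the cerebellum, and Cspg4 by 0.02 (-0.24 to 0.27) and -0.02 (-0.28 to 0.23), intervals that exclude a 1.5-fold difference in either direction. Enpp6 probe 1 read -2.75, -2.69, -2.90 and -2.77 in the young cortex and -3.36, -3.21, -3.11 and -3.73 in the aged cortex. These groups did not overlap, yet the difference of -0.58 ± 0.34 was not called (adjusted p = 0.466). Bcas1, by contrast, stood higher in aged mice in both regions without passing the test, at 0.41 in the cortex (adjusted p = 0.255) and 0.51 in the cerebellum (adjusted p = 0.0664), where the aged arrays (3.63 to 4.02) lay above all young ones (2.97 to 3.61).

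Of the lineage factors, Olig2 was lower in aged mice by -0.37 in the cortex (adjusted p = 0.261, no overlap) and by -0.40 in the cerebellum (adjusted p = 0.122), and neither was called. Sox10 stood at 0.22 in both regions (adjusted p = 0.59 in the cortex and 0.465 in the cerebellum) and Olig1 at -0.19 and -0.18 (adjusted p = 0.586 and 0.52). Groups did not overlap for 3 of the 10 tested probes in the cortex, against 14% of all probes, and for 2 of 10 in the cerebellum, against 19.1%. The Gpr17 call in the cortex was lost with median scaling (-0.88, adjusted p = 0.1), without the filter on dim probes (adjusted p = 0.056) and on leaving out any 1 of 6 of the 8 arrays (replicates 2, 3 and 4 of the aged and 1, 2 and 4 of the young mice, adjusted p = 0.0525 to 0.0943). That in the cerebellum was lost when the 2 groups were fitted alone (adjusted p = 0.089), and without replicate 2 of the aged (-0.72, adjusted p = 0.059) or replicate 4 of the young mice (-0.67, adjusted p = 0.07).

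Markers of neighbouring tissue moved with age as well. In the cortex 3 of 8 striatum markers were called lower, with summed levels of 6.03 to 6.39 in young and 5.11 to 5.51 in aged mice, and in the cerebellum 4 of 9 choroid plexus markers were called lower, with summed levels of 3.20 to 7.98 in young and 2.65 to 2.84 in aged mice. In the cerebellum 4 of 6 microglia markers were called higher (median 0.82), and 1 of 6 astrocyte markers, Gfap, was higher in both regions (1.51 and 1.87). Their part in the Gpr17 values was not tested. Around Gpr17 in its own programme, 1 of 18 tested genes of the committed and newly formed stage was called lower in each region, Rnf122 in the cortex (-1.83, adjusted p = 0.00288) and Tmem163 in the cerebellum (-0.95, adjusted p = 0.0103), and the medians of the list were -0.18 and -0.18 against -0.03 and -0.01 over all probes tested. Among 19 tested genes of myelinating oligodendrocytes 1 rose in each region, Hapln2, which encodes a link protein of the nodes of myelinated axons (1.29, adjusted p = 2.49e-06 in the cortex, and 0.63, adjusted p = 0.00842 in the cerebellum), with list medians of -0.01 and -0.05. None of the tested genes of the precursor list was called with age (0 of 19 in the cortex and 0 of 20 in the cerebellum).

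With age, 3.99% of all probes tested were called higher and 1.04% lower in the cerebellum, and 1.59% and 0.499% in the cortex. The young and aged cerebellum lay on different slides, so slide and age cannot be told apart there. In the BMP pathway, to which Bmp4 belongs, 4 of 20 tested genes were called higher in the aged cerebellum and 0 lower. They were the ligand gene Bmp7 (0.63, adjusted p = 0.000138), the inhibitory Smad6 (0.65, adjusted p = 0.0285), the target gene Id1 (0.71, adjusted p = 4.65e-06) and Grem1, which encodes a secreted antagonist (0.61, adjusted p = 0.0402). Bmp4 probe 1 itself read -0.38 to -0.29 in young and -0.28 to 0.31 in aged cerebellum, groups that did not overlap by a narrow margin, with a difference of 0.25 ± 0.15 that was not called (adjusted p = 0.355). In the cortex 0 of the 20 tested genes of the pathway were called with age (median 0.21). Of 9 tested proliferation genes 1 was called lower in each region, Rrm2 in the cortex (-0.72, adjusted p = 0.00776) and Ccnd1 in the cerebellum (-1.01, adjusted p = 1.46e-05), with list medians of -0.39 and 0.12. Of 16 tested growth factor genes that act on precursors, Cntf was higher in the cortex (0.61, adjusted p = 0.0193) and Ntf3 lower in the cerebellum (-2.07, adjusted p = 2.38e-08). Of 14 tested Notch and Wnt genes that hold back differentiation, 0 were called in the cortex and Apcdd1 was lower in the cerebellum (-0.62, adjusted p = 0.0215). In a list of 12 tested sialidases and lipid enzymes beside Neu4 and Enpp6, Neu2 was lower in both regions (-0.65, adjusted p = 0.016, and -1.10, adjusted p = 1.19e-05).

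On the deficient diet, aged wild-type mice had lower cerebellar levels of Sox10, Olig1, Gpr17, Bcas1 and Enpp6 probe 2, while Olig2, Pdgfra, Cspg4 and Bmp4 were not called. The called probes were 5 of the 10 tested, against 0.82% of all probes called lower, and 0 of 10 were called higher, against 0.461%. The groups of these 5 did not overlap, against 16.8% of all probes. Both Enpp6 probes passed the filter only through the normal diet, where they were higher. Of the 8 probes above background on every array of both groups, 4 were called lower and the same number did not overlap, with a median of -0.46, against -0.01 over all probes tested. Both groups were hybridised on 1 slide.

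Sox10, the factor of the whole lineage, read 1.18, 1.51, 1.55 and 1.38 on the normal diet and 0.40, 0.51, 0.92 and 1.05 on the deficient diet. No deficient array reached the lowest normal one, and the difference was -0.69 ± 0.16 (1.61-fold, adjusted p = 0.0156). Olig1 read 2.34, 2.19, 2.50 and 2.42 against 1.48, 1.71, 1.94 and 1.94, again with no overlap (-0.59 ± 0.14, 1.51-fold, adjusted p = 0.0164). Olig2 spanned -1.72 to -0.95 against -1.98 to -1.43, where the groups overlapped, and was not called (-0.32 ± 0.16, adjusted p = 0.26).

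Gpr17 read 1.24, 0.98, 1.62 and 1.47 on the normal diet and 0.02, 0.53, 0.93 and 0.62 on the deficient diet (-0.80 ± 0.23, 1.74-fold, adjusted p = 0.0429). Bcas1 read 3.86, 3.63, 3.89 and 4.02 against 3.10, 2.90, 3.39 and 3.58 (-0.61 ± 0.18, 1.52-fold, adjusted p = 0.0466). Neither gene's groups overlapped. The Enpp6 probes lay near background, and on the deficient diet 2 of 4 arrays of each were above it. Probe 2 read -3.82, -3.61, -3.47 and -3.96 on the normal diet, all above background, against -5.34, -6.61, -4.31 and -4.06 on the deficient diet (-1.37 ± 0.40, adjusted p = 0.0448). The size of this difference is uncertain, since it rests in part on readings not above background. Probe 1, the brighter of the pair, read -3.53, -3.26, -3.21 and -3.03 against -5.01, -5.22, -3.76 and -3.18, with 2 of 4 deficient arrays above background. Replicate 4 of the deficient group lay inside the normal range, and the difference of -1.03 ± 0.34 was not called (adjusted p = 0.072). With normexp background correction the difference of probe 2 shrank to -0.27 (adjusted p = 0.1), and 2 of 4 deficient arrays of this probe were not above background.

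Pdgfra and Cspg4 were not called in the same arrays. Whether their change differs from that of the called genes was not tested. Pdgfra differed by -0.11 (95% interval -0.32 to 0.10) and Cspg4 by -0.16 (-0.41 to 0.10), and for both the interval excludes a fall of 1.5-fold. Bmp4 probe 1 had the opposite sign (0.39 ± 0.15, adjusted p = 0.127). Within the deficient group, replicates 1 and 2 had the lowest Sox10, the lowest Olig1 and the lowest readings of both Enpp6 probes, while Pdgfra was -0.18 to -0.24 on all 4 arrays.

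These calls lay near the threshold. When the 2 groups were fitted alone, 0 of the 5 were called (adjusted p = 0.14 to 0.2), and without the filter on dim probes 2 were, Sox10 and Olig1. Olig1 and Bcas1 dropped under the fold threshold with array weights (-0.57 and -0.56) and with quantile normalization (-0.56 and -0.58), and Bcas1 lost the call with median scaling (adjusted p = 0.052). Leaving out replicate 3 of the normal group, or replicate 1 or 2 of the deficient group, left 0 called, and leaving out replicate 1 or 4 of the normal group left 1. Differences kept their sign under every alternative run. By limma without adjustment, 6 of the 10 tested probes had p under 0.05 in the lower direction and 1 in the higher. The share of all probes at that limit was not counted.

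Mature oligodendrocyte genes were lower in the same comparison. Of 19 tested genes of myelinating oligodendrocytes 5 were called lower and 0 higher, with a median of -0.45. Among them, chosen after their values were seen, were Opalin (-1.39, adjusted p = 0.0368), Ugt8a, the enzyme that makes galactosylceramide of myelin (-1.31, adjusted p = 0.0176), Ppp1r14a (-0.96, adjusted p = 0.0205) and Mag, the myelin-associated glycoprotein (-0.82, adjusted p = 0.032). In the precursor list 2 of 20 tested were called lower, C1ql1 (-1.02, adjusted p = 0.01) and Rlbp1 (-0.71, adjusted p = 0.0276), also named after their values were seen, with a list median of -0.13. Of the 18 tested genes of the committed and newly formed stage 0 were called in either direction, and their median was 0.06. Of the markers of neighbouring tissue and of other cells, 0 of 7 tested for choroid plexus, 0 of 6 for striatum, 0 of 8 for pericytes, 0 of 8 for fibroblasts, 0 of 6 for astrocytes and 0 of 6 for microglia were called. Over all probes 0.82% were called lower and 0.461% higher. The part of other cells or tissue in this comparison was not tested.

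In the cortex the same diet gave 0 calls among 10 probes tested, against 0.223% of all probes called in either direction, and 1 of 10 had groups that did not overlap, against 10% of all probes. Of these, 8 were above background on every array of both groups, with a median of -0.12, and 0 of the 8 were without overlap. Enpp6 was not among them. Its probe 1 read -3.36, -3.21, -3.11 and -3.73 on the normal diet and -5.78, -4.01, -4.35 and -3.88 on the deficient diet, of which 2 of 4 were above background, with no overlap (-1.15 ± 0.34, adjusted p = 0.101). Probe 2 was above background on 3 of 4 normal arrays and on 0 of 4 deficient arrays, so it was not tested. Its groups overlapped, at -4.94 to -3.50 on the normal and -6.50 to -4.60 on the deficient diet. Gpr17 read 3.23, 2.97, 3.10 and 2.90 against 2.04, 2.15, 2.38 and 3.03, so 3 of 4 deficient arrays lay below all normal ones (-0.65 ± 0.23, adjusted p = 0.165). Sox10 (-0.23), Olig1 (-0.22), Bcas1 (-0.26) and Olig2 (0.00) all had intervals that crossed 0. With weights for array quality 2 of the 10 were called lower. By limma without adjustment 2 probes had p under 0.05, both lower. Summed levels of striatum markers were 5.11 to 5.51 on the normal and 5.87 to 6.98 on the deficient diet, with 1 of 8 called higher, and their part was not tested. The groups lay on different slides, so slide and diet cannot be told apart here. None of the 19 tested genes of myelinating oligodendrocytes was called in the cortex (median -0.34). Whether the effect of this diet differs between the regions was not tested.

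**Figure D3:**
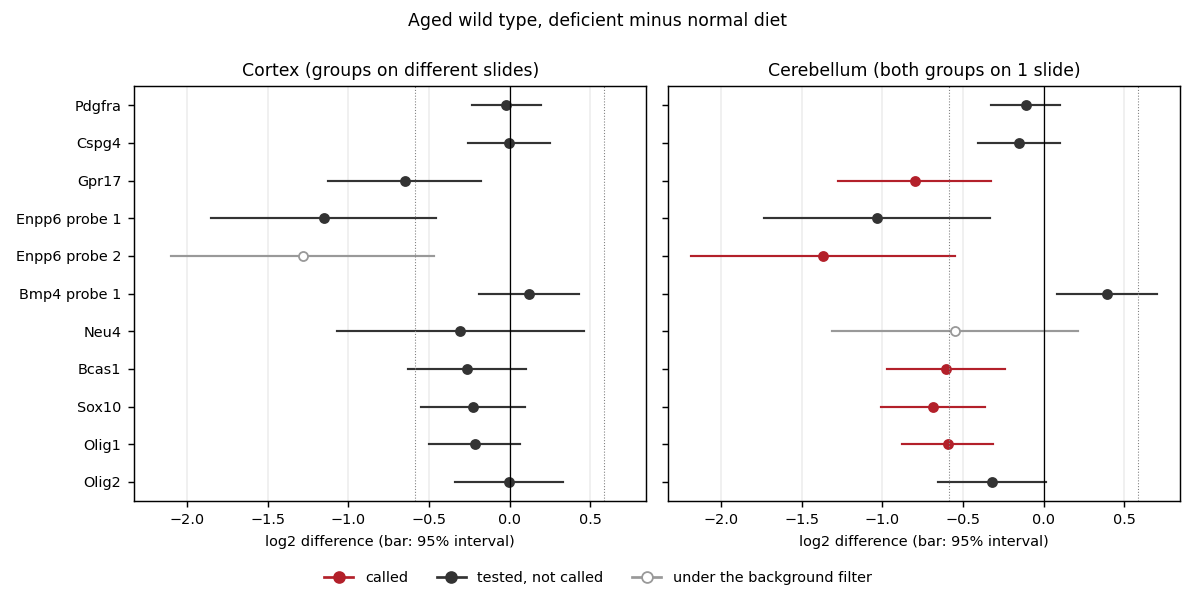
Deficient minus normal diet in aged wild-type mice, as log2 difference (horizontal axis) for 11 probes (vertical axis) in cortex and cerebellum, with bars for the 95% interval, called probes in red and dotted lines at 1.5-fold. In the cerebellum the 5 called probes lay between -1.37 and -0.59, and Pdgfra and Cspg4 lay at -0.11 and -0.16.

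Ttpa-/- mice on the deficient diet were compared with aged wild-type mice on either diet. The comparisons with the deficient wild type share those arrays with the diet comparison above. Those with the wild type on the normal diet share its arrays with the ageing and diet comparisons, and with the comparison of supplemented mice below. Against the wild type on the normal diet, Bcas1 was the 1 probe called among 10 in the cerebellum, lower, against 1.79% of all probes, and 0 of 10 were higher, against 2.67%. Groups did not overlap for 3 of 10, against 17% of all probes. It read 3.86, 3.63, 3.89 and 4.02 in the wild type and 2.94, 3.20, 2.68 and 3.21 in the Ttpa-/- mice, with no overlap (-0.84 ± 0.18, 1.79-fold, adjusted p = 0.00221). This call held under all 18 alternatives. Olig1 was lower by -0.51 ± 0.14 (adjusted p = 0.0135, no overlap), under the fold threshold, and Enpp6 probe 1 by -0.85 ± 0.34 (adjusted p = 0.0972, no overlap). Gpr17, at 1.06, 1.19, 1.03 and 1.56, lay within the wild-type range (-0.12, 95% interval -0.59 to 0.36), and Sox10 was at -0.28 (adjusted p = 0.259).

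In the cortex 0 of 10 probes were called in this comparison, against 4.75% of all probes called in either direction, and 2 of 10 had groups that did not overlap, against 23.4%. A pair of them had an adjusted p under 0.05 with a fold under the threshold. Pdgfra read 0.80, 1.18, 1.09 and 1.23 in Ttpa-/- mice against 1.34, 1.26, 1.38 and 1.53 in the wild type, with no overlap (-0.30 ± 0.10, 1.23-fold, adjusted p = 0.0404), and Bcas1 read 2.93 to 3.24 against 2.97 to 4.02 (-0.51 ± 0.18, adjusted p = 0.0419). Beside Pdgfra, 1 of 8 fibroblast markers, Lum (-0.73), and 1 of 8 pericyte markers, Kcnj8 (-0.83), were called lower, with summed levels of 4.21 to 4.92 against 4.63 to 5.13 for fibroblasts and 3.14 to 3.73 against 3.19 to 3.37 for pericytes, and their part was not tested. Lum and Kcnj8 are named after their values were seen. Striatum markers, 2 of 8 called higher, summed to 5.74 to 5.97 against 5.11 to 5.51, without overlap, and their part in the cortical values of this comparison was not tested either. Olig2 had the opposite sign, at 0.27, -0.07, 0.12 and -0.15 against -0.62, -0.44, -0.25 and -0.28 (0.44 ± 0.16, adjusted p = 0.0582, no overlap). Of 19 tested genes of myelinating oligodendrocytes 4 were lower and 0 higher in the cortex (median -0.56), and 4 lower and 0 higher in the cerebellum (median -0.44). The 4 in the cortex were Opalin (-1.16), Mal (-0.80), Trf (-0.70) and Tspan2 (-0.67), and in the cerebellum Opalin (-1.47), Ppp1r14a (-0.86), Mag (-0.66) and Mbp (-0.62), named after their values were seen. The difference between regions in this effect was called for 0 of 11 member probes, against 3.38% of all probes in either direction. By limma 3 of 11 had an unadjusted p under 0.05, and all probes were not counted at that limit. They were Sox10 at -0.55 (adjusted p = 0.131), Olig1 at -0.51 (adjusted p = 0.111) and Cspg4 at -0.44 (adjusted p = 0.131).

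With both genotypes on the deficient diet, 2 of 9 probes tested were called in the cerebellum, both higher in Ttpa-/- mice, against 3.02% of all probes called higher, and 0 lower, against 1.92%. Olig2 read -0.88, -0.97, -1.21 and -0.93 in Ttpa-/- mice against -1.98, -1.60, -1.52 and -1.43 in the wild type (0.63 ± 0.16, 1.55-fold, adjusted p = 0.0101). Gpr17 read 1.06, 1.19, 1.03 and 1.56 against 0.02, 0.53, 0.93 and 0.62 (0.68 ± 0.23, 1.61-fold, adjusted p = 0.0472). In both genes the groups did not overlap, against 13.5% of all probes. Bmp4 probe 1 was lower by -0.46 ± 0.15 (adjusted p = 0.04), under the fold threshold. The Gpr17 call was lost in 11 of 18 alternatives, 7 of them with 1 array left out (adjusted p = 0.0528 to 0.21), and the Olig2 call in 4, among them without replicate 1 of the deficient wild type (0.52, adjusted p = 0.0646).

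In the cortex 0 of 10 probes were called in that comparison, against 3.07% of all probes in either direction, and 1 of 10 had groups that did not overlap, against 17.2%. Sox10 read 2.33, 2.22, 2.31 and 1.91 in Ttpa-/- mice against 1.36, 1.77, 1.59 and 2.05 (0.50 ± 0.16, 1.42-fold, adjusted p = 0.0335), under the fold threshold. Without adjustment 5 of the 10 were higher and 1 lower at a limma p under 0.05, with no share of all probes counted at that limit. The 1 lower was Pdgfra (-0.28 ± 0.10, adjusted p = 0.0708, no overlap). Enpp6 probe 2, above background on 3 of 4 arrays against 0 of 4, was not tested. With dim wild-type readings raised to the dimmest signal that passed background on their array, its mean was 1.44-fold higher in Ttpa-/- mice. This value has no interval and was not tested. In both regions the genotypes lay on different slides, so slide and genotype cannot be told apart.

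Supplementation of Ttpa-/- mice was compared with the deficient diet on 1 slide in the cerebellum. No member was called there, 0 of 10 tested against 0.343% of all probes in either direction, but Gpr17 came close. It read 0.78, -0.24, 0.04 and 0.61 in supplemented mice and 1.06, 1.19, 1.03 and 1.56 in deficient mice, with no overlap, and the sign was that of a lower level on the supplemented diet (-0.91 ± 0.23, 1.88-fold, adjusted p = 0.0521). Olig2, at -1.31, -1.40, -1.29 and -1.29 against -0.88, -0.97, -1.21 and -0.93, was lower in the same arrays (-0.32 ± 0.16, adjusted p = 0.449, no overlap). Groups did not overlap for 2 of the 10 tested probes, against 5.32% of all. With normexp background correction, with quantile normalization, or with a replicate block, 1 probe was called lower. Without adjustment 1 probe was higher and 1 lower at p under 0.05.

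In the cortex 0 of 11 probes were called between the diets of Ttpa-/- mice, against 3.31% of all probes. Bcas1 was the only one of the 11 without overlap, against 19% of all probes, at 3.72, 3.51, 3.55 and 3.68 on the supplemented and 2.93, 3.09, 3.16 and 3.24 on the deficient diet (0.51 ± 0.18, 1.42-fold, adjusted p = 0.055). Of 20 tested genes of myelinating oligodendrocytes 8 were called higher and 0 lower, with a median of 0.55, among them Opalin (1.34, adjusted p = 0.02), Mobp (1.08, adjusted p = 0.00801), Tspan2 (0.95, adjusted p = 0.000422) and Mal (0.75, adjusted p = 0.00837), named after their values were seen. In the precursor list 0 of 19 were called (median -0.11). Pdgfra was at 0.25 (adjusted p = 0.104), beside 2 of 8 fibroblast markers called higher, and Gpr17 at -0.44 (adjusted p = 0.217). The 2 groups lay on different slides, and slide and diet cannot be told apart.

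Against the aged wild type on the normal diet, supplemented Ttpa-/- mice had 2 of 10 probes called lower in the cerebellum, against 1.57% of all probes, and 0 higher, against 3.34%. Gpr17 read 0.78, -0.24, 0.04 and 0.61 against 1.24, 0.98, 1.62 and 1.47, with no overlap (-1.03 ± 0.23, 2.04-fold, adjusted p = 0.00315). Bcas1 read 3.01, 3.47, 2.91 and 3.23 against 3.86, 3.63, 3.89 and 4.02 (-0.70 ± 0.18, 1.62-fold, adjusted p = 0.00883). These 2 were without overlap, against 21.3% of all probes. Both calls held on leaving out any 1 array, that of Gpr17 was lost when the 2 groups were fitted alone (adjusted p = 0.056) and that of Bcas1 with median scaling (adjusted p = 0.072). In the cortex 0 of 11 were called, against 0.092% of all probes, and the groups of 2 did not overlap, against 6.87%. Gpr17 was at 2.88, 2.25, 2.04 and 2.57 against 3.23, 2.97, 3.10 and 2.90, with no overlap (-0.61 ± 0.23, adjusted p = 0.37). Slide and group cannot be told apart in either region. Supplemented Ttpa-/- and deficient wild-type cortex shared a slide, and 0 of 11 were called between them, against 0.0316% of all probes, with 2 of 11 without overlap, against 5.57%. These were the Enpp6 probes, above background on 2 and 0 of 4 deficient arrays. They read higher in the supplemented mice (1.16 ± 0.34, adjusted p = 0.26, for probe 1). For probe 2 the means differed 1.68-fold with dim deficient readings raised to their array's dimmest passing signal, a value without an interval. Both passed the filter only through the supplemented mice, where they were higher. Of the 8 probes above background on every array of both groups, 0 were without overlap.

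**Figure D4:**
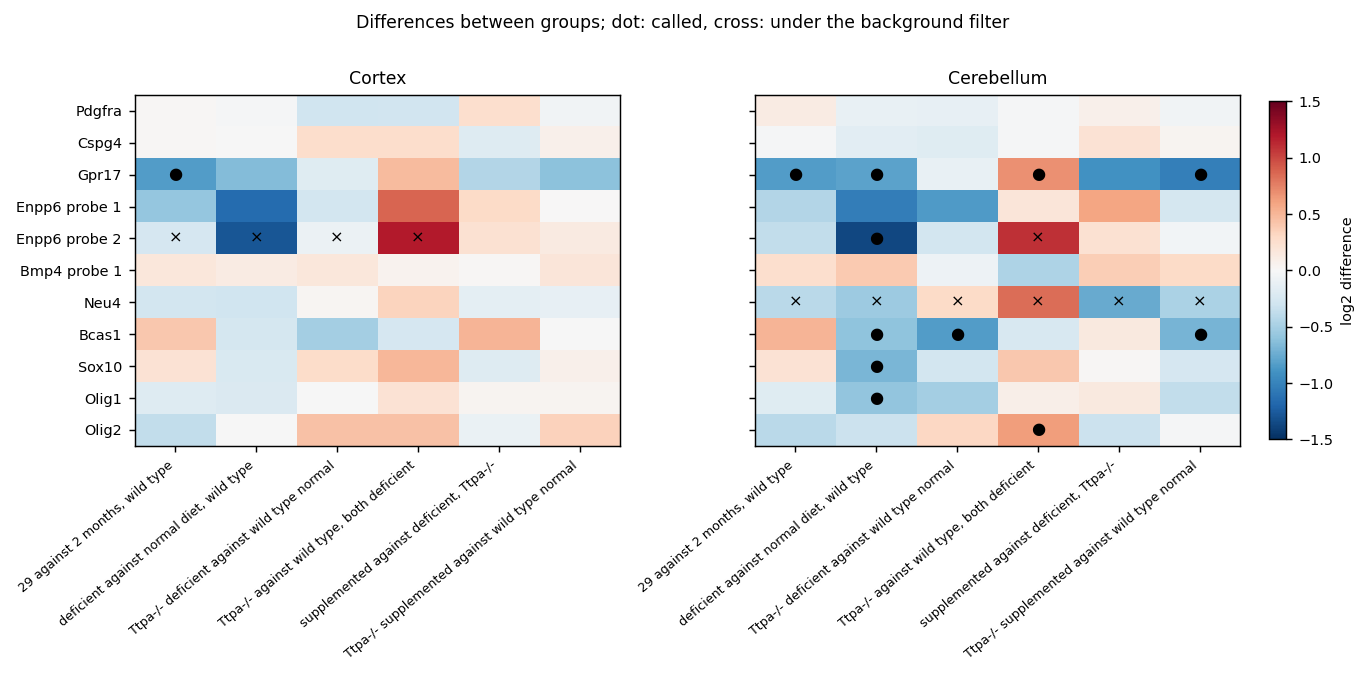
Log2 differences (colour, red higher and blue lower in the first-named group) of 11 probes (vertical axis) in 6 comparisons (horizontal axis) in the cortex and the cerebellum, with a dot where the probe was called and a cross where it was under the background filter. Of the 12 dots, 11 are in the cerebellum, and 5 of those stand in the column of the deficient diet in wild type.

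Across all 5 groups of a region, the Gpr17 means can be put in order. In the cortex its mean ran from 3.88 ± 0.19 (SD, n = 4) in young mice to 3.05 ± 0.14 in the aged wild type, 2.87 ± 0.13 in deficient Ttpa-/-, 2.43 ± 0.37 in supplemented Ttpa-/- and 2.40 ± 0.44 in the deficient wild type. Only the first step, between young and aged mice, passed the test among neighbours in that order. In the cerebellum the order was 2.17 ± 0.44 in young mice, 1.33 ± 0.28 in the aged wild type, 1.21 ± 0.24 in deficient Ttpa-/-, 0.53 ± 0.38 in the deficient wild type and 0.30 ± 0.48 in supplemented Ttpa-/-, the same but for the last 2 places. There the steps from young to aged wild type and from deficient Ttpa-/- to deficient wild type passed the test, while the step between aged wild type and deficient Ttpa-/- did not, and the last was not tested.

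Bcas1 had its highest mean in the aged wild type on the normal diet in both regions, 3.62 ± 0.47 in the cortex (beside 3.61 ± 0.10 in supplemented Ttpa-/-) and 3.85 ± 0.16 in the cerebellum, and its lowest in deficient Ttpa-/- mice, 3.11 ± 0.13 and 3.01 ± 0.25. Outside the aged wild type on the normal diet, its cerebellar means were 3.01 to 3.34. Every Bcas1 call was against that group in the cerebellum, so these calls share its arrays. In the cortex the SD of the aged wild type came from replicate 4, at 2.97 beside 3.56, 4.02 and 3.93, and the same array had the lowest Sox10 of its group, 1.41 beside 1.93, 2.24 and 2.10. Sox10 was lowest in the deficient wild-type cerebellum (0.72 ± 0.31) and between 1.13 and 1.41 in the other cerebellar groups. Pdgfra group means spanned 1.08 to 1.38 in the cortex and -0.22 to -0.10 in the cerebellum, and those of Cspg4 spanned 0.35 to 0.63 and -1.16 to -0.94.

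Neu4 and the second Bmp4 probe were limited by signal. Neu4 was above background on 19 of 20 cortical and 10 of 20 cerebellar arrays, with levels of -4.70 to -3.05 and of -6.72 to -3.77, and it passed the filter in none of the 6 comparisons within the cerebellum. Bmp4 probe 2 was above background on 1 of 40 arrays, so probe 1 stands for the gene, with a range of 0.12 to 0.80 in the cortex and -0.56 to 0.58 in the cerebellum.

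Deviations of single arrays from their group means show which members varied together between mice. Over the 20 arrays of a region, as a description across arrays that also share slide and hybridisation, Bcas1 and Olig1 varied together most closely (Pearson r = 0.88 in the cerebellum and 0.65 in the cortex), followed by Enpp6 with Olig1 in the cortex (0.80) and Cspg4 with Olig2 in the cerebellum (0.77). Olig1 and Olig2 had r = 0.74 in the cerebellum and 0.23 in the cortex. Bmp4 had a negative r with each of the 9 other members in the cortex, down to -0.52 with Cspg4.

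Outside the members, the genes most alike in these deviations were found among 12490 genes in the cortex and 12571 in the cerebellum that were above background on all 20 arrays. For Bcas1 in the cortex they were Pdlim2 (r = 0.95), Tmem125 (0.93) and Mag (0.92), and for Sox10 they were Gjb1 (0.93), Cdc42ep2 (0.92) and Mag (0.89). For Gpr17 they were Ndp (0.90), Ddah1 (0.90) and Car15 (0.90) in the cortex and Ric8b (0.84), Susd5 (0.84) and Pcdh17 (0.84) in the cerebellum. For Olig1 in the cerebellum they were Fabp5 (0.93), Stambpl1 (0.93) and Zfp462 (0.92), and for Enpp6 there they were Dusp16, Dach1 and Klk6 (0.88 each). The highest of so many values is large by selection, and none of these lists was the same in both regions.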

How the data were processed

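Total RNA of cortex and cerebellum was labelled with Cy3 and hybridised to Agilent one-colour arrays. Intensities per spot were deposited by the authors as Feature Extraction output (version 10.7.3.1 in the file headers, 10.1.1.1 in the submitters' processing notes, positions on mm9), already background-subtracted, together with the authors' log2 values after global normalization, centred on each probe's mean, which differed from the same centring of the scale used here by a median of 0.00085. From the deposited intensities, log2(processed signal) minus the log2 75th percentile of each array was computed. Control spots were left out, spots of a probe were averaged, and 92 of 55681 probes without a usable spot on every array were left out. No probe was saturated.

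Groups followed the labels, with 4 mice per group according to the design text. One limma fit (version 3.58.1, R 4.3.3) over 10 groups and 40 arrays gave all comparisons, without a replicate block. A probe was tested where all 4 arrays of either group compared read it well above background (for an average of several spots, on at least 50% of them), Benjamini-Hochberg adjustment ran over all probes tested, and a call needed an adjusted p under 0.05 and a fold above 1.5. Exact permutation tests were two-sided, with 0.0286 as the smallest p. Counts of members at an unadjusted limma p under 0.05 have no share of all probes beside them. They cannot be set against the whole array. On simulated data for ageing in the cortex, 169 of 200 probes changed 2-fold and 194 of 200 changed 4-fold were recovered (28043 probes tested), and in the cerebellum 150 and 196 of 200 (30627 probes tested).

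The members and the gene lists were chosen with earlier results of these data known. All members are named, and the brightest probe stands for a gene. In the ageing comparison the called genes of the lineage, signalling, proliferation and lipid enzyme lists are named, and so is Gfap. Other called markers there are given as counts, and not for every list. List genes named in other comparisons are said to be chosen after their values were seen. The result of 1 list gene is not reported here. A summed list level is the log2 of the summed relative intensities of its genes, and 205 of 206 list genes were on the array. Likeness is the Pearson r of deviations from group means among genes above background on all 20 arrays of a region. Alternatives were the authors' values, median scaling, quantile normalization, normexp background correction (offset 50), no filter, no fold threshold, array weights, the compared groups alone, the methods' fold rule with a t-test on the same values, a replicate block, and each array left out. Slide could not be a block because each group lay within 1 slide. The number of arrays limits the precision.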

Additional observations from a re-analysis of the deposited data

Results flagged for a closer look

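In 7 of 120 sets of 4 arrays (1 probe in 1 group), 1 array stood apart from the other 3 by more than Dixon's 95% limit, and chance alone gives about 1 in 20 groups. These were Enpp6 probe 1 in the young cerebellum (replicate 1, -3.473), Enpp6 probe 2 in the aged wild-type cortex (replicate 4, -4.938), Bmp4 probe 1 in the aged wild-type cortex (replicate 3, 0.3152), Bmp4 probe 2 in the aged wild-type cortex (replicate 4, -6.535) and in the deficient wild-type cerebellum (replicate 1, -0.7484), Neu4 in the deficient wild-type cerebellum (replicate 2, -6.716) and Olig2 in the supplemented Ttpa-/- cerebellum (replicate 2, -1.402). Bmp4 probe 2 on replicate 1 of the deficient wild-type cerebellum was the only reading of that probe above background, while probe 1 of the same gene read 0.31 on that array, inside its group's range.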

How the results depend on the processing

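Of 24 member calls, 11 held under all 18 alternatives, 13 were lost under at least 1, and none changed sign. The 11 were Pdgfra, Cspg4, Gpr17, Olig1 and Olig2 between regions at both ages and Bcas1 in deficient Ttpa-/- against aged wild-type cerebellum. The main shifts in the counts of members called are given first, and further lost calls after them. With the compared groups fitted alone, and with the methods' t-test after adjustment, the counts were 0 instead of 1 (ageing in the cerebellum, lower), 0 instead of 5 (deficient diet in wild-type cerebellum, lower), 0 instead of 2 (Ttpa loss on the deficient diet in the cerebellum, higher) and 1 instead of 2 (supplemented Ttpa-/- against aged wild-type cerebellum, lower). These fits have fewer arrays to estimate the spread. Without the filter on dim probes, which tests more probes, they were 0 instead of 1 (ageing in the cortex), 2 instead of 5 (deficient diet, cerebellum) and 1 instead of 2 (Ttpa loss on the deficient diet, cerebellum). Median scaling gave 0 for ageing in the cortex and 1 for supplemented Ttpa-/- against aged wild-type cerebellum. Array weights gave 1 instead of 2 (Ttpa loss on the deficient diet, cerebellum), 1 instead of 0 (the same in the cortex, higher; Ttpa loss plus deficient diet in the cortex, lower) and 2 instead of 0 (deficient diet, cortex). Normexp gave 1 instead of 2 (Ttpa loss on the deficient diet, cerebellum) and, like quantile normalization, 1 instead of 0 for supplementation in Ttpa-/- cerebellum. Without a fold threshold 1 member was lower and 1 higher for Ttpa loss on the deficient diet (cerebellum and cortex), and 2 were lower for Ttpa loss plus deficient diet in each region. For the deficient diet in wild-type cerebellum, Olig1 and Bcas1 also lost the call with array weights and with quantile normalization. Bcas1 lost it with median scaling too, and Enpp6 probe 2 with normexp. Between regions, Bmp4 probe 1 at 2 months lost the call with array weights and with normexp, and Neu4 at 29 months with normexp. The cause of these shifts was otherwise not tested.

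The numbers of the labels were not taken to pair the samples. Deviations of same-numbered arrays of different groups correlated with a median of 0.125 in the cortex (-0.342 to 0.562, other numbers -0.0309) and 0.0123 in the cerebellum (-0.496 to 0.697, other numbers -0.00612), and those of cortex and cerebellum of the same group and number with a median of 0.176 (-0.162 to 0.628, other numbers -0.0588). Not every pair was over 0.1, and the arrays were taken to share only a number. These correlations cannot show whether same-numbered samples share a mouse. The region comparisons treat cortex and cerebellum as independent, which was not tested. With the replicate number as a block the calls were 1 instead of 0 (Ttpa loss on the deficient diet, cortex, higher), 2 instead of 1 (Ttpa loss plus deficient diet, cerebellum, lower), 1 instead of 0 (supplementation in Ttpa-/- cerebellum, lower) and 6 instead of 5 (deficient diet in wild-type cerebellum, lower).

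With 1 array left out, the calls lower ranged from 0 to 1 for ageing in either region, Ttpa loss plus deficient diet in the cortex, Ttpa loss on the deficient diet and supplementation in the cerebellum, from 0 to 2 for the deficient diet in wild-type cortex, from 0 to 6 for it in the cerebellum, and from 5 to 7 for the regions at either age. Calls higher ranged from 0 to 1 for ageing in either region, from 0 to 3 for Ttpa loss on the deficient diet in the cortex and from 0 to 2 in the cerebellum. Signal over background limits Enpp6, Neu4 and Bmp4 probe 2.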
